A study of Mus musculus with 12 samples.

Results

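The regions described here are stretches of chromatin that carried H3K27ac in the distal forelimb of wild-type E11.5 mouse embryos, lost the call in embryos lacking HOXA13 and HOXD13, and held no called peak of either factor. They were chosen by overlap: an autosomal wild-type H3K27ac peak became a member where it shared no base with any double-mutant H3K27ac peak, any HOXA13 peak or any HOXD13 peak. The rule found 2170 members among 31220 autosomal wild-type H3K27ac peaks, or 6.95% (Wilson 95% interval 6.67 to 7.24). Below, bound means overlap with a peak of either factor, and lost or kept means that the double-mutant list had no peak, or had one, over a wild-type H3K27ac peak.

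The homeodomain proteins HOXA13 and HOXD13 bind DNA in the distal limb bud, where they act together in the formation of the digits. H3K27ac marks active promoters and enhancers. Enhancers often lie far from the promoters they act on and occur in groups along a chromosome. H3K27me3 is the mark that Polycomb repressive complex 2 sets on silenced developmental genes.

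Chromatin immunoprecipitation and sequencing (ChIP-seq) gave 1 library per group, so nothing below has a replicate check and no p-value is given. The double mutant was Hoxa13-/-;Hoxd13-/- on a mixed C57BL/6 - CD1 background. Its Hoxa13 allele carries a neomycin cassette in the coding region, and its Hoxd13 allele carries lacZ in the first exon. Wild-type embryos were of the same mixed background, and in both genotypes the distal part of the E11.5 forelimb was profiled for H3K27ac and H3K27me3. HOXA13 and HOXD13 were profiled in wild type, with antibodies made in-house and an additional disuccinimidyl glutarate cross-link for HOXA13. E10.5 forelimbs of CD1 mice were profiled for H3K27me3 with an antibody from another supplier. The labels do not state whether embryos were pooled. The double-mutant H3K27ac list was the longer of the pair, with 37433 autosomal peaks over 73.2 Mb, against 31220 over 58.5 Mb in wild type. HOXA13 had 30657 and HOXD13 22372 autosomal peaks, which merged into 33296 HOX13 sites.

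The members were weak and narrow wild-type peaks. The score is the peak caller's, taken to be -10 log10 of a p-value, with a lowest deposited value of 50. Members had a median score of 77.1 (quartiles 60.3 to 111) and a median width of 946 bp (824 to 1145). Bound lost peaks had a median score of 103 (71.0 to 181) and a width of 1129 bp. Unbound peaks that stayed acetylated, 17122 in number, had a median score of 404 (131 to 1760) and a width of 1600 bp. Only 663 members (30.6%) scored 100 or more, 128 scored 200 or more, 13 scored 500 or more and 6 scored 1000 or more.

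**Figure D1:**
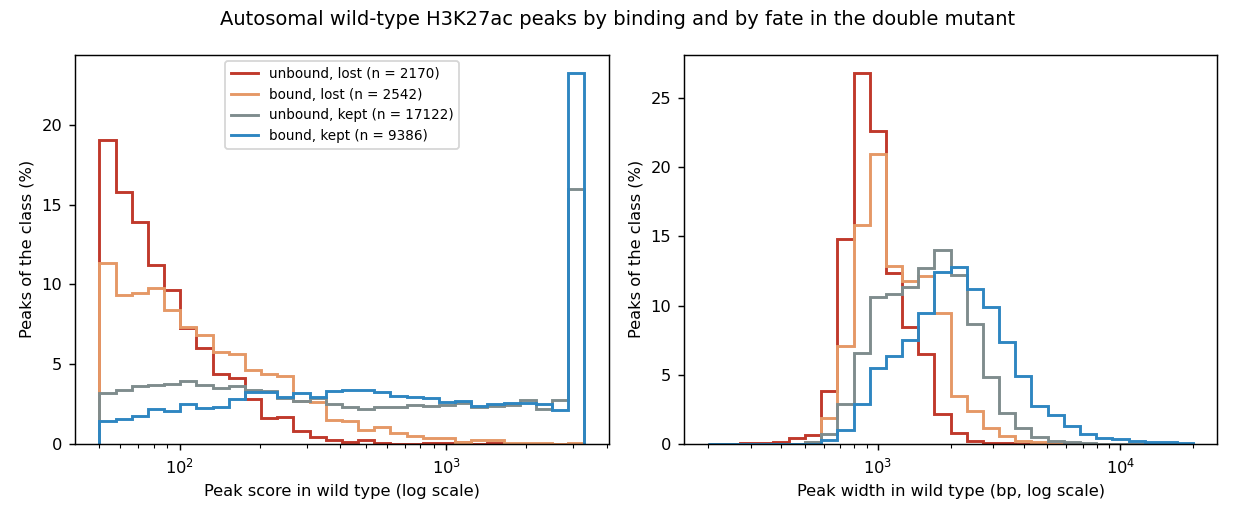
Distribution of score (left, log scale) and width in bp (right, log scale) of autosomal wild-type H3K27ac peaks, as percent of each of 4 classes. Members (red) pile up near the lowest score of 50 and have a median width of 946 bp, while kept peaks spread to the highest scores, where many share the value 3100.

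Over all autosomal wild-type H3K27ac peaks, 15.1% were lost (4712 peaks). The share was 11.2% among the 19292 unbound peaks and 21.3% among the 11928 bound peaks (2542 lost), and members made up 46.1% of all lost peaks (44.6 to 47.5). Loss depended on the score in both classes. In the lowest of 5 equal classes of score (50 to 96.3), 34.0% of unbound peaks and 59.7% of bound peaks were lost. In the second class (96.3 to 208) the shares were 14.8% and 38.3%, and in the third (208 to 600) they were 3.05% and 16.6%. In the highest class, 0 of 3607 unbound peaks were lost (Wilson upper bound 0.106%), against 2 of 2637 bound peaks. These shares describe the calls that chose the members and are not tested.

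Because of this dependence, each comparison below sets the members against unbound kept peaks weighted to the members' numbers in 25 bins of score and width. After weighting, the kept peaks had a median score of 79.6 and a median width of 956 bp. Differences are in percentage points, with 95% intervals for the counting error of peaks alone. Neighbouring peaks are not independent, so these intervals are too narrow, and the spread between embryos is not measured.

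The 5 members of highest score stood apart from the bulk. The first, chr3:96077391-96078918 (mm9, as are all coordinates here), scored 1512 and lay 3.16 kb from a HOX13 site carrying both factors and 2.32 kb from the nearest double-mutant H3K27ac peak. The second, chr5:136941043-136945799, was the widest member at 4757 bp, scored 1232 and lay 36.0 kb from any double-mutant peak. The third, chr17:56952824-56955619, scored 1201 and had a double-mutant peak 2.05 kb away. The other two were chr5:38988742-38990763, which scored 1083, and chr10:79116612-79118935, which scored 1061. Their gaps to a HOX13 site spanned 3.16 to 49.6 kb, and the region on chromosome 10 overlapped H3K27me3 in all 3 lists and had a bound lost peak 7.32 kb away.

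Most members were well separated from double-mutant acetylation, but some were near misses. The median gap to the nearest double-mutant H3K27ac peak was 13.3 kb (quartiles 4.49 to 35.8). A double-mutant peak lay within 100 bp of 29 members, within 1 kb of 186 (8.57%, 7.47 to 9.82) and within 5 kb of 586. Just inside the rule were chr11:118654137-118655085, with a score of 89.2 and a gap of 3 bp, and chr13:97840836-97841464, with a score of 54.2 and a gap of 4 bp. Just outside it were chr14:121458171-121459196 (score 90.9), which shared 3 bp with a double-mutant peak, and chr5:39024871-39025870 (score 104), which shared 4 bp. On the binding side, 13 members had a HOX13 site within 100 bp.

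Members lay somewhat farther from HOX13 sites than kept peaks of like score and width. Their median gap to the nearest site was 17.5 kb (quartiles 6.85 to 42.7), against 14.1 kb (4.62 to 34.9) for weighted kept peaks. A site lay within 10 kb of 736 members, or 33.9% (32.0 to 35.9), against 40.8% of weighted kept peaks, a difference of -6.88 points (-9.27 to -4.49). The same order held at the other distances measured. Within 1 kb the shares were 4.56% of members and 6.37% of kept peaks, within 50 kb they were 78.6% and 83.4%, and within 500 kb they were 98.8% and 99.9%. Without weighting the difference within 10 kb turned round to 3.24 points, and the median gap over all unbound kept peaks was 21.5 kb.

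**Figure D2:**
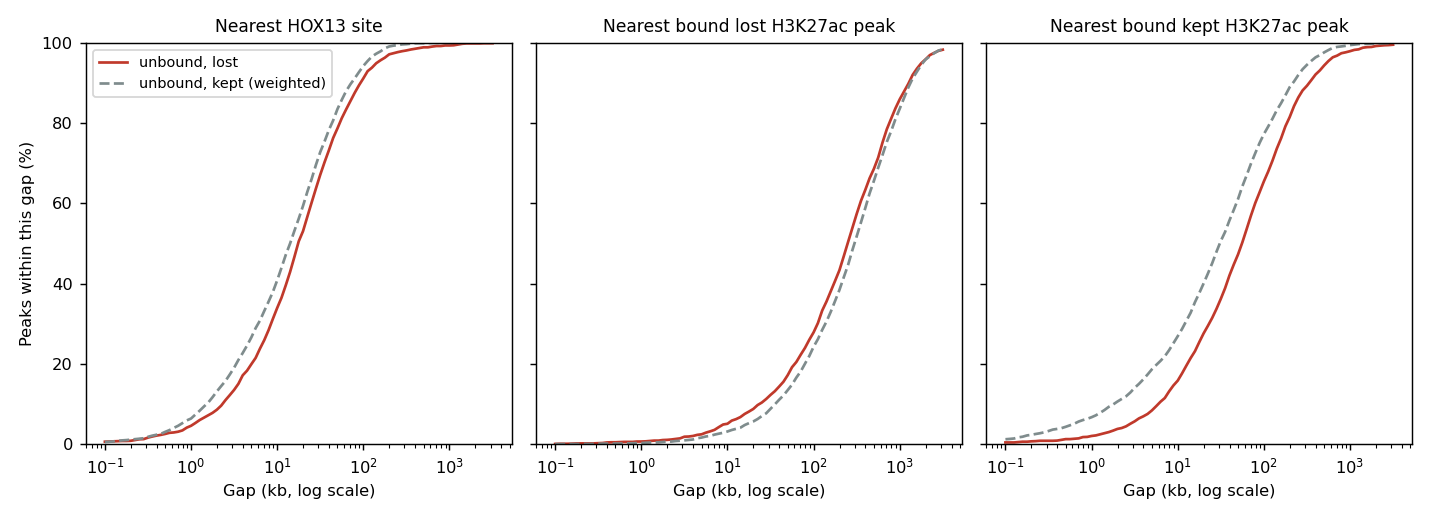
Percent of peaks (vertical axis) within a given gap in kb (horizontal axis, log scale) of the nearest HOX13 site, bound lost H3K27ac peak and bound kept H3K27ac peak. Members (solid red) run below weighted kept peaks (dashed grey) over most of the range in the first and last panels, with 33.9% against 40.8% at 10 kb from a HOX13 site, and above them for bound lost peaks over most of the range, with 17.2% against 13.5% at 50 kb.

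How crowded the surroundings were moved with this difference. Another wild-type H3K27ac peak lay within 5 kb of 26.4% of members, against 43.2% of weighted kept peaks, and the median number of such peaks within 50 kb was 2 and 3. Weighting kept peaks also by the number of peaks within 50 kb, an alternative added after seeing the data, left a difference of -2.08 points (-4.44 to 0.276) in sites within 10 kb and 0.251 kb in the median gap. Among peaks with 0 to 2 such neighbours, a site lay within 10 kb of 26.8% of members and 28.8% of weighted kept peaks. With 3 to 4 neighbours the shares were 37.5% and 37.4%, and with 5 to 21 they were 50.6% and 55.6%. The interval of the difference included 0 in each of these 3 classes.

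The sites nearest to members overlapped wild-type H3K27ac less often than the sites nearest to weighted kept peaks. Among peaks with a site within 10 kb, the nearest site carried both factors for 58.8% of members and 60.7% of weighted kept peaks, a difference of -1.88 points (-5.97 to 2.21). The nearest site overlapped wild-type H3K27ac for 51.9% of members, against 62.2% of kept peaks (-10.3 points, -14.5 to -6.18). It overlapped wild-type H3K27ac that was itself lost for 86 of the 736 members, or 11.7%, against 5.67% of kept peaks (6.02 points, 3.51 to 8.52). The last share uses the same double-mutant list that chose the members and is a description. None of these shares was weighted by the number of neighbouring peaks, which was lower around members.

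Among members of score 100 or more, the 3 nearest to a site all lay beside a HOXA13 peak without a called HOXD13 peak. They were chr5:145158717-145159324 with a gap of 28 bp, chr3:140295433-140297363 with 38 bp and chr9:40424663-40425636 with 83 bp. The HOXA13 peaks beside them scored 55.3, 52.6 and 102, where the lowest score in the HOXA13 list was 50. The members themselves scored 140, 224 and 127. None of the 3 had a bound lost peak within 50 kb, which 17.2% of all members had. The 3 farthest were chr12:22811059-22812198 (score 404, 1563 kb from a site), chr12:19181489-19182516 (score 122, 1463 kb) and chr2:176493029-176493372 (score 104, 1384 kb). None of the 3 farthest had another wild-type H3K27ac peak within 50 kb.

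Few unbound peaks lay very far from any HOX13 site. Beyond 500 kb there were 71, of which 25 (35.2%, 25.1 to 46.8) were members and 46 were kept, beside 11.2% lost over all unbound peaks and 34.0% in the lowest class of score. These shares are not weighted by score and width. With weighting, the share of peaks that had a site within 500 kb differed by -1.02 points (-1.46 to -0.574) between members and kept peaks. Chromosome 12 held 10 of these members beside 5 kept peaks, and chromosome 14 held 10 beside 6. The other 5 lay on chromosomes 2, 3 and 7, where chromosome 7 had 2 members and 13 kept peaks. These counts by chromosome do not include all of the 46 kept peaks. Of the 25, 13 scored 100 or more, and their median number of wild-type H3K27ac peaks within 50 kb was 0. Most came from a pair of stretches in which every wild-type H3K27ac peak in a row was a member. One was chr14:4213491-7938363, with 8 members over 3.72 Mb, scores of 53.9 to 186 and HOX13 gaps of 0.660 to 4.38 Mb. The other was chr12:21834239-22812198, with 7 members over 978 kb, scores of 85.9 to 404 and HOX13 gaps of 0.586 to 1.56 Mb.

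Members lay closer than weighted kept peaks to acetylation that was bound and lost. Their median gap to the nearest bound lost peak was 249 kb (quartiles 83.5 to 629), against 299 kb (105 to 699). Such a peak lay within 50 kb of 373 members, or 17.2% (15.7 to 18.8), against 13.5% of kept peaks, a difference of 3.73 points (1.90 to 5.56). Within 10 kb the shares were 5.07% and 3.14%, and within 1 kb they were 0.645% (14 members) and 0.256%. Most members thus had no bound lost peak within 100 kb, where the share was 27.8% of members and 24.2% of kept peaks. With members and kept peaks of score 100 or more only, the difference within 50 kb was 1.08 points (-1.67 to 3.84). Bound lost peaks were called against the same double-mutant list as the members, so this proximity is described and not tested.

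The opposite held for bound peaks that stayed acetylated and for acetylation gained in the double mutant. The nearest bound kept peak was at a median of 55.4 kb from members, against 30.8 kb from weighted kept peaks, and lay within 50 kb of 47.1% and 61.0% (-13.9 points, -16.3 to -11.4). The nearest double-mutant peak with no wild-type counterpart was at a median of 55.8 kb from members, against 22.0 kb. It lay within 50 kb of 47.7% of members, against 67.5% of kept peaks (-19.8 points, -22.2 to -17.3). Weighting also by the number of neighbouring peaks reduced the bound kept difference to -3.08 points (-5.31 to -0.858). The gained difference was not weighted in that way. Kept and gained peaks were called with the same double-mutant list as the members, so both differences are described and not tested. The bound lost difference was 1.56 points (-0.470 to 3.59) among peaks with 0 to 2 neighbours, 7.68 (3.34 to 12.01) with 3 to 4 and 12.7 (8.07 to 17.2) with 5 to 21.

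The member of score 100 or more nearest to a bound lost peak was chr2:171389048-171389897, which scored 163. It lay 370 bp from chr2:171387263-171388677, which scored 298 and carried both factors. Next came chr6:38954745-38956315, which scored 194 and lay 401 bp from a bound lost peak of score 237. The third was chr1:76862643-76863640, which scored 118 and lay 1134 bp from a bound lost peak of score 66.1. All 3 belonged to rows of 4 to 6 consecutive lost peaks. The nearest HOX13 site of each, 0.341 to 1.08 kb away, overlapped that bound lost peak. A lost neighbour and a near site thus follow from how these members were picked.

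Turned round, the share of unbound peaks that were lost was higher where the nearest bound peak was lost too. Within 50 kb, 253 of 1419 unbound peaks (17.8%, 15.9 to 19.9) were lost where the nearest bound neighbour was lost, against 10.6% of weighted peaks whose bound neighbour was kept (7.18 points, 5.33 to 9.03). The difference was 15.8 points (8.38 to 23.2) at gaps under 2 kb, 9.27 (3.74 to 14.8) at 5 to 10 kb, 6.64 at 10 to 20 kb and 3.69 at 20 to 50 kb. At 50 to 100 kb it was 0.863 points (-1.76 to 3.49). Within 50 kb, the difference was 7.97 points (4.61 to 11.3) where the bound neighbour scored 50 to 100. It was 7.23 (3.61 to 10.8) for scores of 100 to 200 and 7.52 (3.98 to 11.1) for 200 or more. Whether it varied with that score was not tested, and these values were not weighted by the number of neighbouring peaks.

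The state of the nearest unbound neighbour was examined in the same way. Where the nearest unbound peak within 50 kb was lost, 18.6% of unbound peaks were lost, against 10.6% of weighted peaks whose unbound neighbour was kept (8.02 points, 6.21 to 9.83). Under 2 kb the difference was 23.1 points (17.9 to 28.4), and at 20 to 50 kb it was 0.130 points (-2.76 to 3.02). It did not stay near 0 at longer gaps. Over all gaps beyond 50 kb it was 4.14 points (1.33 to 6.95), and beyond 500 kb 45.2% of 42 unbound peaks with a lost neighbour were lost, against 23.0% of weighted peaks with a kept one (22.3 points, 10.7 to 33.8). For bound neighbours the difference was 1.398 points (-0.264 to 3.06) beyond 50 kb and -0.814 points (-7.45 to 5.83) beyond 500 kb. Whether bound and unbound neighbours differed in this was not tested. These values use the calls that chose the members and are descriptions.

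**Figure D3:**
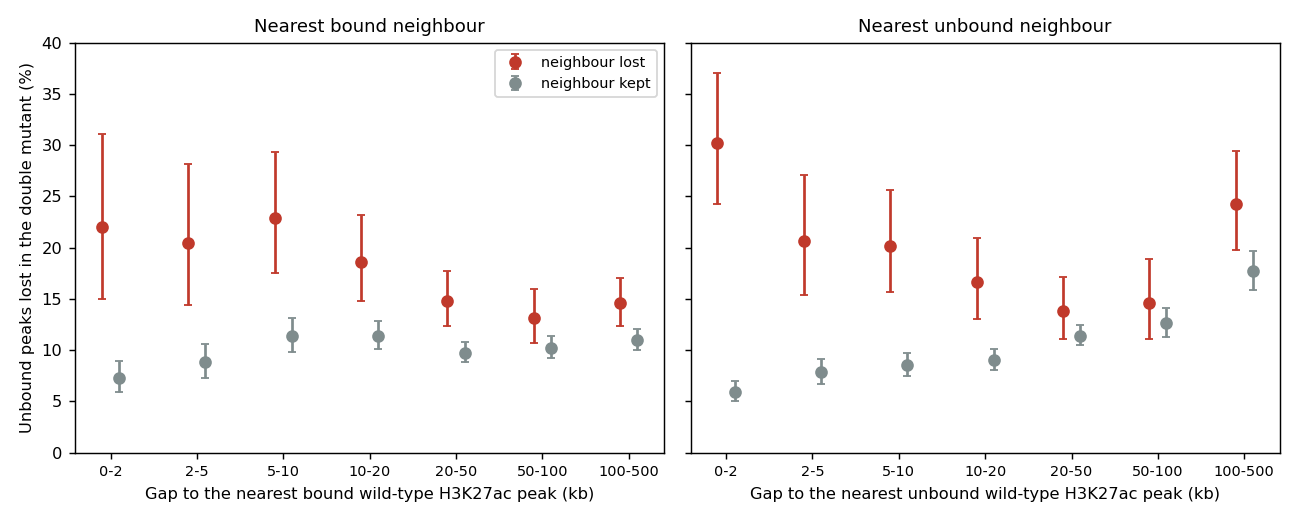
Percent of unbound wild-type H3K27ac peaks lost in the double mutant, unweighted, by the gap in kb to the nearest bound (left) or unbound (right) wild-type H3K27ac peak. Red points have a lost neighbour, grey points a kept one, and bars are Wilson 95% intervals. Under 2 kb from a bound neighbour the shares were 22.0% and 7.27%, and the points draw together beyond 20 kb before parting again in the right panel at 100 to 500 kb.

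Some lost calls sat side by side along the chromosome. An immediate neighbour in the wild-type list was lost for 36.5% of members, against 22.2% of weighted kept peaks (14.3 points, 12.01 to 16.6), and both neighbours were lost for 6.18% and 2.36%. The lost neighbour was bound for 19.6% of members, against 11.8% of kept peaks, and another member for 19.2% and 11.6%. Even so, 1377 members (63.5%) had kept peaks on both sides. A further 479 sat in pairs of lost peaks, 251 of them with a bound lost partner, and 314 sat in rows of 3 to 8 lost peaks, 219 of them in a row that held a bound lost peak. Of all 4712 lost peaks, 2542 were bound, and no expected share was worked out for these pairs and rows. Longer mixed rows included chr18:3598785-4137220 (8 lost peaks, 3 of them members), chr6:98074941-98644649 (8, with 2 members) and chr1:92144043-92294761 (7, with 4 members). Neighbours were called lost against the double-mutant list that chose the members, so these rows are described and not tested. The weights did not match the scores of the neighbours.

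Members rarely carried H3K27me3, a readout that the rule did not use. In the double mutant, H3K27me3 overlapped 136 members, or 6.27% (5.32 to 7.37), against 16.1% of weighted kept peaks (-9.86 points, -11.3 to -8.45). In wild type it overlapped 149 members, or 6.87% (5.88 to 8.01), against 18.2% of kept peaks (-11.4 points, -12.9 to -9.90). In E10.5 forelimb it overlapped 107 members, or 4.93% (4.10 to 5.92), against 15.7% (-10.8 points, -12.1 to -9.43). No H3K27me3 was called at 1999 members (92.1%) in any of the 3 lists, against 80.3% of kept peaks. Of the remainder, 91 members overlapped H3K27me3 in all 3 lists. In wild type the difference was -18.1 points among peaks with 0 to 2 neighbours, -11.7 with 3 to 4 and -3.20 (-6.09 to -0.308) with 5 to 21.

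**Figure D4:**
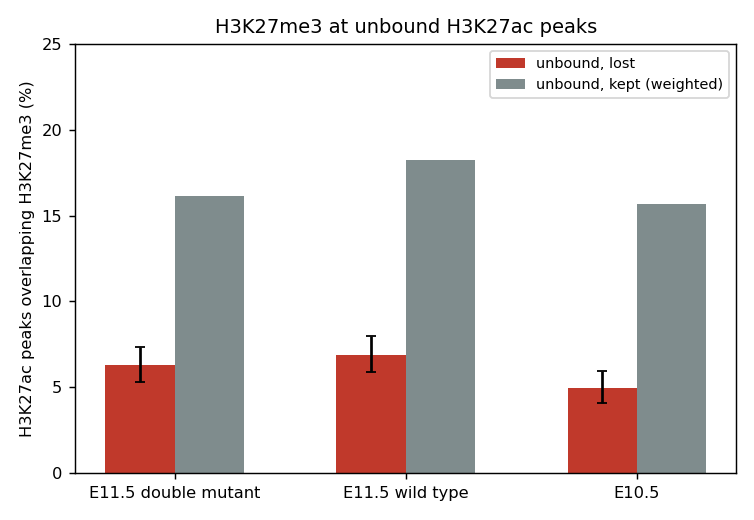
Percent of unbound H3K27ac peaks that overlapped H3K27me3 in the E11.5 double mutant, E11.5 wild type and E10.5 forelimb. Red bars are members with Wilson 95% intervals, between 4.93% and 6.87%, and grey bars are weighted kept peaks, between 15.7% and 18.2%.

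Loss of acetylation was seldom paired with a change in the H3K27me3 call. H3K27me3 was called in both E11.5 genotypes at 123 members, in the double mutant alone at 13 and in wild type alone at 26. The share with H3K27me3 in the double mutant alone was 0.599% of members, against 0.311% of weighted kept peaks (0.288 points, -0.0703 to 0.647). The share in wild type alone was 1.20% of members, against 2.42% (-1.23 points, -1.84 to -0.612). The 3 highest-scoring members with double-mutant H3K27me3 alone were chr12:26386961-26388085 (score 144), chr3:148006091-148007407 (score 135) and chr2:33771925-33772900 (score 91.7). The first lay 63.2 kb from a HOX13 site, the second 5.54 kb and the third 1.37 kb. None of the 3 carried H3K27me3 at E10.5.

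Members were spread over all 19 autosomes. Their share of unbound peaks ran between 7.98% on chromosome 11 and 16.0% on chromosome 18. Against weighted unbound peaks of the other autosomes, the share was higher on chromosome 3 (3.80 points, 1.71 to 5.89), chromosome 13 (2.25, 0.122 to 4.38) and chromosome 18 (2.59, 0.0783 to 5.11). It was lower on chromosome 4 (-1.67, -3.19 to -0.155) and chromosome 11 (-2.59, -3.91 to -1.28). The intervals of the 19 chromosomes were not adjusted for their number. Of the 102 members on chromosome 18, 10 lay in 1 window of 500 kb, described below. Across the 19 chromosomes, the share of unbound peaks lost and the share of bound peaks lost had a Spearman correlation of 0.384 and a Pearson correlation of 0.500, a description of points that share the same libraries.

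Windows of 500 kb showed how members sat among other peaks. Of 3765 windows with a wild-type H3K27ac peak, 1504 held a member and 1048 of these held 1. A bound lost peak was present in 692 of the windows with a member, which held 1029 members (47.4%). The matching shares over all windows and over kept peaks were not counted. By gap, a bound lost peak lay within 500 kb of 68.6% of members and 65.5% of weighted kept peaks. In 14 windows there were 5 or more members: 1 window held 10, 1 held 6 and 12 held 5. The windows of 10 and 6 are described below with the first 3 of the 12 tied windows in genome order, all on chromosome 2. The other tied windows are not described.

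The window chr18:37500001-38000000 held 10 members, 5 unbound kept peaks, 1 bound kept peak and no bound lost peak. Its members were weak, with scores of 52.1 to 107, and lay 40.1 to 305 kb from a HOX13 site and at least 337 kb from a bound lost peak. Unlike members in general, 9 of the 10 overlapped H3K27me3 in the double mutant, 8 in wild type and 6 at E10.5. The window held 10 double-mutant H3K27ac peaks, 3 of them gained.

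The window chr2:74000001-74500000 was of the opposite kind. It held 5 members among 10 bound lost peaks, 7 bound kept peaks and 1 unbound kept peak, with 33 HOX13 sites. Its double-mutant list had 11 H3K27ac peaks and none gained. The members scored 50.4 to 97.7, lay 0.509 to 16.9 kb from a HOX13 site and 0.862 to 43.8 kb from a bound lost peak, and overlapped no H3K27me3. The member closest to a bound lost peak, chr2:74105967-74106832, scored 77.9 and lay 862 bp from chr2:74107695-74112549, which scored 1622. A bound kept peak lay nearer to this member, at 0.056 kb. The nearest wild-type H3K27ac peak was also bound and kept for members with gaps of 0.438, 3.236 and 16.234 kb. For the remaining member it was bound and lost, at 2.71 kb.

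The other windows described were mixed in their neighbours. The window chr9:61000001-61500000 held 6 members, 2 bound lost and 8 bound kept peaks with 18 HOX13 sites, and 14 of its 25 double-mutant peaks were gained. Its members scored 59.2 to 241 and lay 1.10 to 17.4 kb from a site. The window chr2:59500001-60000000 held 5 members, 5 bound lost and 9 bound kept peaks with 24 sites, and 13 of its 34 double-mutant peaks were gained. The window chr2:13000001-13500000 held 5 members, 5 bound kept peaks and no bound lost peak. Its members scored 51.9 to 160 and lay 11.54 to 38.6 kb from a site, and none of its 8 double-mutant peaks was gained.

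**Figure D5:**
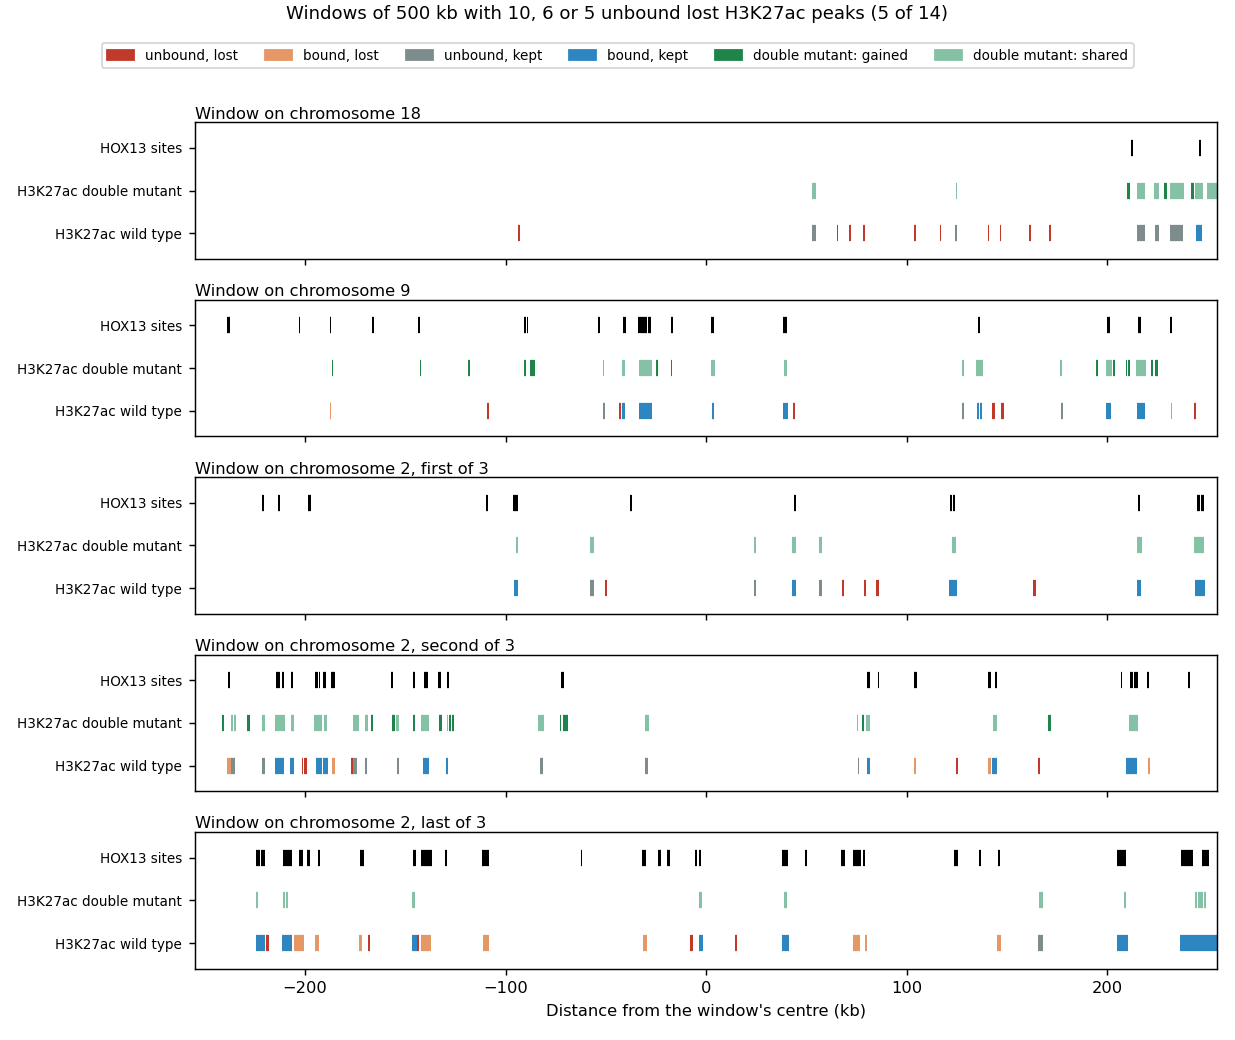
Peak positions in 5 windows of 500 kb, those with 10 and 6 members and the first 3 in genome order of 12 windows tied at 5, by distance in kb from the window's centre, with HOX13 sites on top, double-mutant H3K27ac in the middle and wild-type H3K27ac at the bottom. Members (red) fill a stretch free of HOX13 sites in the window on chromosome 18. In the last window on chromosome 2 they lie among bound lost (orange) and bound kept (blue) peaks.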

How the data were processed

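The data were 7 deposited peak lists, 1 for each immunoprecipitated library. The submitters' processing notes name Bowtie 0.12.7, MACS 1.4 and the genome build mm9. The deposited score depends on read depth and input, so it was used only within 1 list. The lists hold no read counts, and depth is unknown. In each list, 6 to 16 peaks ran beyond the GRCm38 length of chromosome 1, so the lists were treated as mm9. No mm9 genome or annotation was used here, so no gene, tissue marker or sequence is given. Peaks were compared with Python 3.11.15, numpy 2.4.6 and pandas 2.3.3. Overlap meant 1 bp, gaps run between nearest edges, and overlapping peaks of both factors were merged into HOX13 sites. Overlaps and gaps were checked against bedtools, and the weighting was tested on simulated data. Weights came from quintiles of score by quintiles of width over unbound autosomal peaks. Sex chromosomes were left out by the rule.

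The members, their rule and the comparisons were chosen with earlier results of these data known. Named regions follow a fixed rule: the 5 highest scores, the 3 of score 100 or more nearest to and farthest from a HOX13 site and nearest to a bound lost peak, the 3 highest with double-mutant H3K27me3 alone, the regions at the rule's edge and the 5 windows with the most members, ties taken in genome order (12 windows tied at 5 members, of which 3 were taken). Stretches of consecutive lost peaks were named after their values were seen. Of the alternatives, 12 were planned, and 2 (weights by neighbouring peaks, and leaving out the window with the most members) were added after seeing the data.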

Additional observations from a re-analysis of the deposited data

How the results depend on the processing

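A call is present or absent at a score of 50, near which most members lie, so a lost call does not measure how much of the mark was lost. The number of members was between 663 (score of 100 or more) and 2952 (H3K27ac lists of equal length). Without weights, the HOX13 differences turned round, to 3.24 points within 10 kb and -3.94 kb in the median gap. Weights by neighbouring peaks, added after seeing the data, gave -2.08 points and 0.251 kb. Joining peaks closer than 1000 bp gave -3.70 points and 2.01 kb. The median difference was 6.59 kb with all lists limited to scores of 100 or more and 5.38 kb for sites of both factors.

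For bound lost peaks within 50 kb, no weights gave 6.26 points, and members and kept peaks of score 100 or more gave 1.08. The median gap differed by -98.4 kb without weights, -70.7 kb with all lists limited to scores of 100 or more and -20.4 kb with members and kept peaks of score 100 or more. The neighbour-state difference was 3.05 points at that member score and 5.20 points with neighbour weights. H3K27me3 differences at that member score were -11.4 points (double mutant), -13.0 (wild type) and -12.7 (E10.5). With neighbour weights they were -12.02, -13.7 and -12.5. Without weights they were -8.11 in the double mutant and -9.12 at E10.5.

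The share of members with a double-mutant peak within 1 kb was 5.76% with all lists limited to scores of 100 or more, 6.03% at that member score, 12.95% with 50% overlap, 3.48% after joining and 0% by construction when 1000 bp counted as overlap. The other alternatives left these shares, differences and medians inside the 95% intervals of the values reported above. For bound kept peaks within 50 kb, which the report also gives, no weights gave -4.41 points. No paired analysis was possible because each group holds 1 library. Read depth is unknown, and its part in these losses was not tested.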
